A study of Homo sapiens with 8 samples.

Results

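The genes described here are 8 targets of transforming growth factor beta (TGF-beta) or of the transcriptional co-activator YAP: CTGF, CYR61, ANKRD1, TGFBI, SMAD7, AMOTL2, AXL and TGFB2. They were looked up by gene symbol, and 7 of the 8 had a row of their own among the 11822 genes tested. ANKRD1, a cardiac ankyrin repeat protein and YAP target, is not analysed here. The cells were U-87MG, an established human glioblastoma line, grown in serum-containing medium. The I3CA group (4 arrays) received 50 µM indole-3-carboxaldehyde, an aldehyde formed from tryptophan, for 24 h. The protocol groups it with known and putative activators of AHR, the aryl hydrocarbon receptor. The DMSO group (4 arrays) received the solvent alone for 24 h. Both groups are 1 cell line with its own AHR, and the labels call the arrays biological replicates without naming separate cultures, so p-values cover the spread among these arrays, which may be technical. The comparison asked whether I3CA altered the RNA level of these targets.

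TGF-beta ligands are secreted in a latent form and, once freed, bind a pair of receptor kinases that phosphorylate SMAD2 and SMAD3. These enter the nucleus with SMAD4 and act on genes such as SMAD7, whose product blocks the receptor in turn. YAP and its relative TAZ (gene WWTR1) are held back by the Hippo kinases, and in the nucleus they bind TEAD factors at genes such as CTGF, CYR61 and AMOTL2. CTGF takes input from both pathways. In glioblastoma, TGF-beta and YAP activity are known for their links with invasion and with the mesenchymal state.

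The promoters of the measured genes were read to see which of the letters known from TEAD, SMAD and AHR binding stand near their starts. RefSeq windows (GRCh38.p14) were found for 6 of the 7 measured genes, all but CYR61, with 10 start sites among them, and the 250 bases before each start were searched on both strands. GGAATG, the core of the TEAD motif, was found in 4 of the 10 windows, 1 each of CTGF, AMOTL2, AXL and TGFB2, and 11.9% of all 35116 RefSeq windows of this length hold it. CAGAC, the SMAD box, was found in 7 of the 10, from 5 genes, against 38% of all windows. The longer SMAD palindrome GTCTAGAC was in none of the 10, and 0.182% of all windows hold it. GCGTG, the core of the AHR motif, was found in 1 of the 3 windows of SMAD7 and 1 of the 2 windows of AXL, against 32.2% of all windows. TGFBI had none of these. A match is a run of letters and not a shown binding site. The 3 windows below are those of the genes with their highest value in DMSO replicate 4 (described further on), a choice made after the values were seen. Capitals mark the TEAD core GGAATG and the SMAD box, on either strand. CTGF lies on the minus strand (chr6:131951373-131951622), SMAD7 on the minus strand (chr18:48950966-48951215, the farthest upstream of its 3 starts) and TGFB2 on the plus strand (chr1:218345086-218345335), each written 5′ to 3′ along the gene.
CTGF: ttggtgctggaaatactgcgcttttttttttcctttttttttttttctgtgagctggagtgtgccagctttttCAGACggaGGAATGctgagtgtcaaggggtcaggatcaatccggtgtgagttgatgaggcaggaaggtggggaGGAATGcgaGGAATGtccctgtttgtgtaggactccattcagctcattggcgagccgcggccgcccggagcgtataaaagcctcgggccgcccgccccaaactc
SMAD7: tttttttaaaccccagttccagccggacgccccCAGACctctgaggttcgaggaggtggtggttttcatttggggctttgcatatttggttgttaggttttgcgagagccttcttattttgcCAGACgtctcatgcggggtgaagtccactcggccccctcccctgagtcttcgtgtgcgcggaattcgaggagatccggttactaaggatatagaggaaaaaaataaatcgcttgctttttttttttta
TGFB2: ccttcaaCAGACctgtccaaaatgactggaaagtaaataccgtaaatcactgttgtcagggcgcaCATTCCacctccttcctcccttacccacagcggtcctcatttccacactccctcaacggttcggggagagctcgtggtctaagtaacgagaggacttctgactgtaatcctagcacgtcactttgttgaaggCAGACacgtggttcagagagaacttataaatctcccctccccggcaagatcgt
The CTGF window holds GGAATG 3 times, with first bases at -169, -104 and -95 from the start. TGFB2 holds it once, on the other strand, and the SMAD7 window holds CAGAC 2 times and no GGAATG.

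The values are the authors' RMA log2 expression values, 1 per probe set and array. The arrays had medians between 8.80 and 8.83. On the first principal component, which held 24.8% of the variance, the arrays numbered 4 stood apart, at -16.4 for I3CA and -15.3 for DMSO, while the other 6 lay between -0.367 and 11.2. The 7 genes are therefore also described without both arrays numbered 4, in the text or in the plot of their differences. Other genes are so described where this moves a p across 0.05, and in some cases where the difference moved far. A difference given below with all arrays only may still depend on these arrays. Leaving them out moved the difference by more than 1.5 times for 26 of the 51 other named genes. For WWTR1 it went from 0.09 to 0.0015, and for SMAD5 from 0.11 to 0.22. The table carries no measure of signal over background, so no gene is shown to be expressed by having a row, and levels of different probe sets are not compared. In bulk RNA, fewer expressing cells and less RNA per cell cannot be told apart.

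None of the 7 TGF-beta and YAP targets passed the test between I3CA and DMSO. In limma over all 11822 genes, 0 of 7 had an adjusted p (Benjamini-Hochberg) under 0.05, where 0.00846% of all genes did, and the adjusted p rounded to 1 for each of the 7. None passed at an unadjusted p under 0.05 either, against 3.16% of all genes, and the smallest unadjusted p was 0.412 (CYR61). In 0 of 7 did the 2 groups of 4 arrays stand apart without overlap, against 1.92% of all genes. The differences, I3CA minus DMSO, ran between -0.04 and 0.12 on the log2 scale with a median of 0.06, against a median of -0.01 over all genes. For 5 genes the I3CA mean was the higher, and 46.6% of all genes had a higher mean with I3CA. Every one of the 7 differences was smaller than the larger SD of its groups. The 95% intervals, each for 1 gene taken alone and from the fit of all arrays, ran from 0.813-fold to 1.35-fold over the 7 genes. They are not a joint bound for the 7, and they depend on the arrays used. Without both arrays numbered 4, CYR61 was at 0.14 ± 0.16 (SE), against 0.12 ± 0.14 with all arrays. Array fold changes tend to understate changes in RNA, because probes carry background signal.

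**Figure D1:**
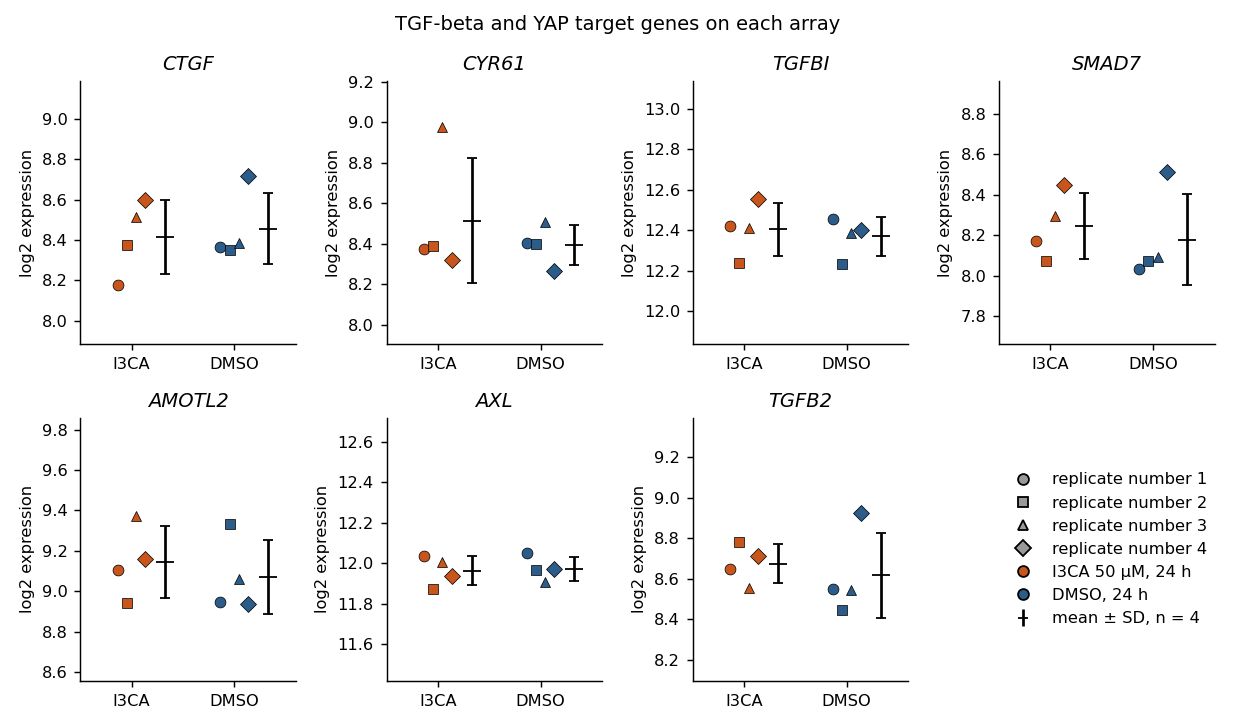
Log2 expression (vertical axes, each spanning the same length) of the 7 genes on every array, I3CA left and DMSO right. Symbols give the replicate number and bars the mean ± SD (n = 4). The groups overlap in all 7 panels, and the diamonds of number 4 are the highest points of both groups for CTGF and SMAD7.

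TGFB2 encodes a TGF-beta ligand that is itself on YAP target lists. Its log2 values were 8.65, 8.78, 8.56 and 8.71 in I3CA replicates 1 to 4, against 8.55, 8.44, 8.54 and 8.92 in DMSO replicates 1 to 4. The highest array was DMSO replicate 4, above all I3CA arrays, and the other 3 DMSO arrays lay below all 4 I3CA arrays. With all arrays the means were 8.67 ± 0.10 with I3CA and 8.62 ± 0.21 with DMSO (SD, n = 4 each), a difference of 0.06 ± 0.11 (SE). Without both arrays numbered 4 the groups no longer overlapped, at 8.56 to 8.78 with I3CA and 8.44 to 8.55 with DMSO. The difference was then 0.15 ± 0.10 (limma unadjusted p = 0.156, adjusted p = 1), so it did not pass there either. TGFB2 was the 1 gene of the 7 whose groups stood apart in that setting, where 3.65% of all genes had all I3CA arrays above all DMSO arrays.

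SMAD7 encodes the inhibitory SMAD that TGF-beta induces as negative feedback. It measured 8.17, 8.07, 8.29 and 8.45 in I3CA replicates 1 to 4, against 8.03, 8.07, 8.09 and 8.51 in DMSO replicates 1 to 4. Number 4 was the highest array of each group, by 0.45 over the mean of the other 3 in DMSO. The difference was 0.07 ± 0.12 (SE), with a 95% interval from -0.21 to 0.34, and 0.11 ± 0.09 without both arrays numbered 4.

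TGFBI encodes a secreted matrix protein named for its induction by TGF-beta. Its values were 12.42, 12.24, 12.41 and 12.55 with I3CA, against 12.46, 12.23, 12.39 and 12.40 with DMSO, in order of replicate number. Replicate 2 was the lowest array of both groups. The difference was 0.03 ± 0.09 (SE; 95% interval -0.17 to 0.24) and turned to -0.003 without both arrays numbered 4.

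CTGF and CYR61 encode secreted CCN family proteins that bind integrins and are the usual readouts of YAP. CTGF measured 8.18, 8.38, 8.51 and 8.60 in I3CA replicates 1 to 4, against 8.36, 8.35, 8.39 and 8.72 in DMSO replicates 1 to 4. I3CA replicate 1 was the lowest of the 8 arrays and DMSO replicate 4 the highest. The difference was -0.04 ± 0.12 (SE), with a 95% interval from -0.30 to 0.22. CYR61 measured 8.37, 8.39, 8.97 and 8.32 in I3CA replicates 1 to 4, against 8.40, 8.40, 8.51 and 8.27 in DMSO replicates 1 to 4. Its difference of 0.12 ± 0.14 (SE), the largest of the 7, rested on I3CA replicate 3, without which it was -0.03. The interval of CYR61 was the widest of the 7, from -0.19 to 0.43, or 0.876-fold to 1.35-fold.

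AMOTL2 encodes an angiomotin that is induced by YAP and binds it in the cytoplasm. It measured 9.11, 8.94, 9.37 and 9.16 in I3CA replicates 1 to 4, against 8.95, 9.33, 9.06 and 8.94 in DMSO replicates 1 to 4. The highest arrays were I3CA replicate 3 and DMSO replicate 2, and the difference was 0.07 ± 0.12 (SE; 95% interval -0.19 to 0.34). AXL, the receptor tyrosine kinase for GAS6 and a YAP target, measured 12.04, 11.87, 12.01 and 11.94 with I3CA, against 12.05, 11.97, 11.91 and 11.97 with DMSO. It had the smallest spread of the 7, with SDs of 0.07 and 0.06, and a difference of -0.01 ± 0.08. Its interval, from 0.884-fold to 1.12-fold, was the narrowest of the 7.

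**Figure D2:**
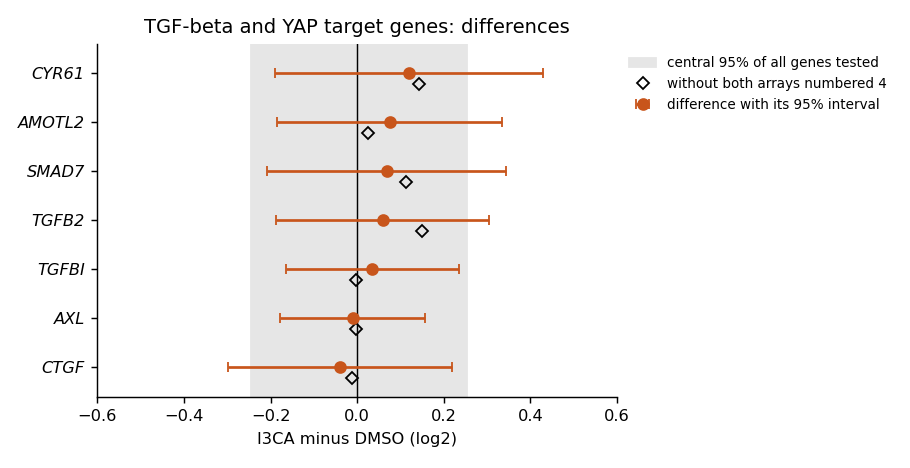
I3CA minus DMSO on the log2 scale for the 7 genes, with 95% intervals from limma (n = 4 each). Open diamonds give the difference without both arrays numbered 4, and grey marks the central 95% of differences over all 11822 genes (-0.25 to 0.25). All 7 intervals span 0, and the points lie between -0.04 and 0.12.

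Set side by side by replicate number, I3CA minus DMSO had no common sign. CTGF gave -0.19, 0.02, 0.13 and -0.12 for numbers 1 to 4, and TGFB2 gave 0.10, 0.34, 0.01 and -0.21. The I3CA array was above its numbered DMSO array in 3 of 4 numbers for TGFBI, SMAD7, AMOTL2 and TGFB2, in 2 of 4 for CTGF and CYR61, and in 1 of 4 for AXL. DMSO replicate 4 was above the mean of the other 3 DMSO arrays by 0.35 for CTGF, 0.45 for SMAD7 and 0.41 for TGFB2, and below it by a difference of -0.17 for both CYR61 and AMOTL2. The arrays numbered 4 were the highest of both groups for CTGF and SMAD7 and the lowest of both groups for CYR61. CTGF and CYR61, paralogs and both YAP targets, thus lay on opposite sides in these arrays. What sets the arrays numbered 4 apart was not tested.

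**Figure D3:**
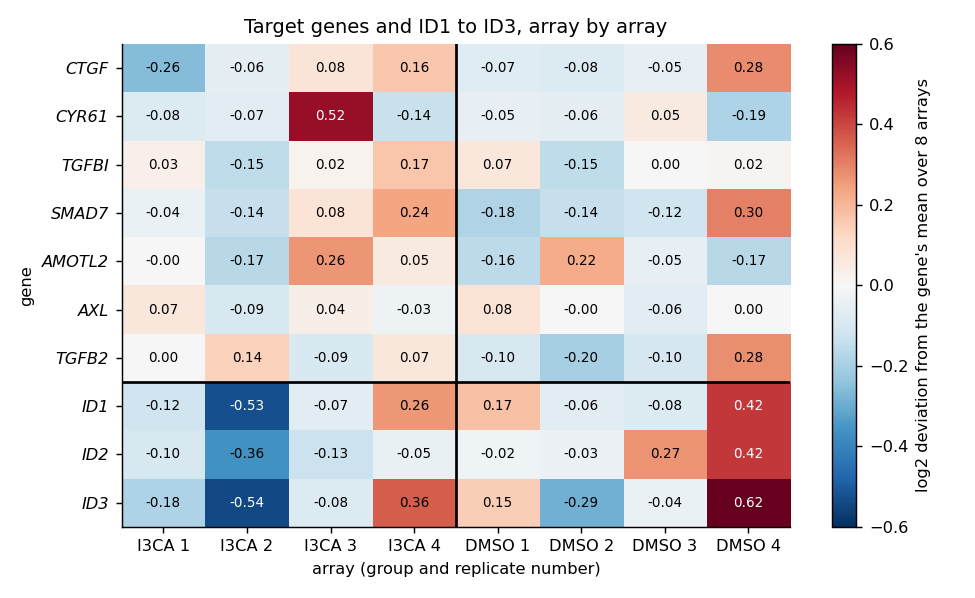
Log2 deviation of each array (columns) from the gene's own mean over the 8 arrays (rows), for the 7 genes and, under the line, for ID1 to ID3. CTGF, SMAD7 and TGFB2 reach 0.28 to 0.30 in DMSO 4, CYR61 stands at 0.52 in I3CA 3, and ID1 to ID3 reach 0.42 to 0.62 in DMSO 4.

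Profiles were also compared by the root mean square difference of log2 values after each gene's mean over the 8 arrays was subtracted. The genes most like CTGF by this measure were EPHB2 (0.04), an ephrin receptor, PRKAR1B (0.05), a regulatory subunit of protein kinase A, and PALMD (0.05). Among the 7 themselves, SMAD7 was the nearest to CTGF, at 0.10 and rank 163 of all genes, and CYR61 the farthest, at 0.26 and rank 9143. The nearest to TGFB2 were MAPK7, CPXM2 and CAB39 (0.05 to 0.06), and the nearest to TGFBI were ROMO1, CDK9 and LDB1 (0.03 to 0.04). These are the closest of 11822 profiles over 8 arrays, given as a description.

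The pathway around these targets was read from lists of ligands, receptors, transducers, inhibitors and further targets. Of 130 such genes outside the 8, 108 were measured, and 0 passed the adjusted threshold. At an unadjusted p under 0.05 there were 2 (1 higher, 1 lower), against 3.16% of all genes, and the median difference was 0.005. These were DOCK5 and ID2. Without both arrays numbered 4 there were again 2, against 3.17% of all genes, but they were LIF and ITGB8. For 56 the I3CA mean was the higher, and for 52 the lower. In 2 of the 108 every I3CA array lay below every DMSO array, against 0.956% of all genes, and in 0 above. Those 2 were ID2 and 1 of the TGF-beta ligands and latency proteins.

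Among TGF-beta ligands and latency proteins, 0 of 10 measured passed, with a median difference of -0.06. Those with the smallest p were LTBP2 (0.15 ± 0.08 SE) and LTBP3 (-0.14 ± 0.08), which hold latent TGF-beta in the matrix, and ITGB8 (0.22 ± 0.14), an integrin subunit that frees it. Without both arrays numbered 4, ITGB8 was at 0.36 ± 0.16 (limma unadjusted p = 0.0492, adjusted p = 1), and its groups overlapped. TGFB1, the main ligand, differed by -0.06 ± 0.08. None of 11 receptors passed (median 0.02). ACVR2A, an activin receptor, was at 0.14 ± 0.09, ACVRL1, a type I receptor best known from endothelium, at -0.21 ± 0.19, and TGFBR3, the co-receptor betaglycan, at -0.12 ± 0.11. The ACVRL1 difference rested on I3CA replicate 4, without which it was -0.06, and that of TGFBR3 on I3CA replicate 2, without which it was -0.02. The signalling receptors TGFBR1 and TGFBR2 differed by 0.05 ± 0.09 and 0.07 ± 0.08. TGFB1, TGFBR1 and TGFBR2 were picked for their place in the pathway after values had been seen. The 7 SMAD transducers had a median of 0.01, led by SMAD5 (0.11 ± 0.12), SMAD4 (0.06 ± 0.10) and SMAD3 (0.05 ± 0.12), and 0 passed. Of 9 other pathway inhibitors 0 passed (median 0.00). BAMBI, a decoy receptor, was at -0.20 ± 0.17, LEMD3, which binds SMADs at the nuclear envelope, at 0.11 ± 0.09, and SMURF1, a ubiquitin ligase that acts with SMAD7, at -0.08 ± 0.07. BAMBI was at -0.02 without I3CA replicate 1 and at -0.35 without both arrays numbered 4.

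The further TGF-beta targets had 0 of 19 past the adjusted threshold and a median of 0.03. ID2, an inhibitor of bHLH transcription factors that answers to SMAD signals, had the smallest p among them. Its values were 7.96, 7.69, 7.93 and 8.01 with I3CA, against 8.03, 8.02, 8.33 and 8.48 with DMSO, in order of replicate number. Every I3CA array lay below every DMSO array, which 0.956% of all genes also showed. The difference was -0.32 ± 0.12 (SE; limma unadjusted p = 0.0242, adjusted p = 1) and did not pass. Without both arrays numbered 4 the ID2 difference was -0.27 ± 0.12 (limma unadjusted p = 0.0561). LTBP2 belongs here too, and LIF, an interleukin-6 family cytokine induced by TGF-beta in glioma, was at 0.45 ± 0.25. LIF ran from 9.57 to 10.63 with I3CA and from 9.20 to 10.29 with DMSO, with number 4 the lowest of each group. Its I3CA array was above its numbered DMSO array in 4 of 4 numbers, as also for LTBP2, ACVR2A, TGFBR2, DOCK5, GAS6, FHL2, CSF1R, TIPARP and CYP1B1. The share of all genes with this trait was not counted. Without both arrays numbered 4 the LIF groups did not overlap, at 10.37 to 10.63 with I3CA and 9.76 to 10.29 with DMSO. The difference was then 0.48 ± 0.15 (limma unadjusted p = 0.0113, adjusted p = 1), which did not pass over all genes. LIF was not alone in this, since 3.65% of all genes had all I3CA arrays above all DMSO arrays in that setting. Among the named genes TGFB2, SMAD5, KDR, TIPARP and CYP1B1 did so too. LTBP3, ID2 and PROS1 had all I3CA arrays below all DMSO arrays there, and the share of all genes with that order is not given here.

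On the Hippo side, 0 of 17 measured kinases and upstream regulators outside the 8 passed and the median was -0.01. LATS2, a kinase that inactivates YAP and is also a YAP target, was at 0.21 ± 0.11 and WWC1, the scaffold KIBRA, at -0.15 ± 0.12. RASSF1, a scaffold of the Hippo kinases, was at -0.65 ± 0.36. It measured 7.91, 8.18, 7.58 and 7.73 with I3CA, against 8.66, 7.75, 7.91 and 9.70 with DMSO. DMSO replicate 4 was its highest array, and without both arrays numbered 4 the difference was -0.22. Of 7 factors in the nucleus 0 passed (median 0.02), with WWTR1 at 0.09 ± 0.11, VGLL4, a TEAD partner that competes with YAP, at 0.05 ± 0.10, and YAP1 at 0.03 ± 0.08.

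Of 16 further YAP targets 0 passed over all genes and the median was 0.01. DOCK5, an activator of Rac, was the 1 at an unadjusted p under 0.05. It measured 10.47, 10.55, 10.33 and 10.43 with I3CA, against 10.41, 10.23, 10.15 and 10.18 with DMSO. DMSO replicate 1 lay above I3CA replicate 3, so the groups overlapped, and the difference was 0.20 ± 0.09 (limma unadjusted p = 0.0432, adjusted p = 1). Without both arrays numbered 4 it was 0.18 ± 0.11 (limma unadjusted p = 0.124). LATS2 is on this list too, and AJUBA, a LIM protein that restrains the LATS kinases, was at -0.15 ± 0.10. The relatives of the 7 genes gave no call either. In the CCN family NOV was at -0.13 ± 0.16 and WISP2 at -0.01 ± 0.14. Around AXL its ligand GAS6 was at 0.22 ± 0.11, PROS1, the other ligand of this receptor family, at -0.13 ± 0.09, and the receptor TYRO3 at -0.11 ± 0.13. Of 14 actin and SRF target genes, which share regulation with YAP, 0 passed. FHL2, a LIM-only co-factor, was at 0.20 ± 0.11, CNN1, calponin, at -0.18 ± 0.11, and VCL, vinculin, at 0.12 ± 0.08.

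**Figure D4:**
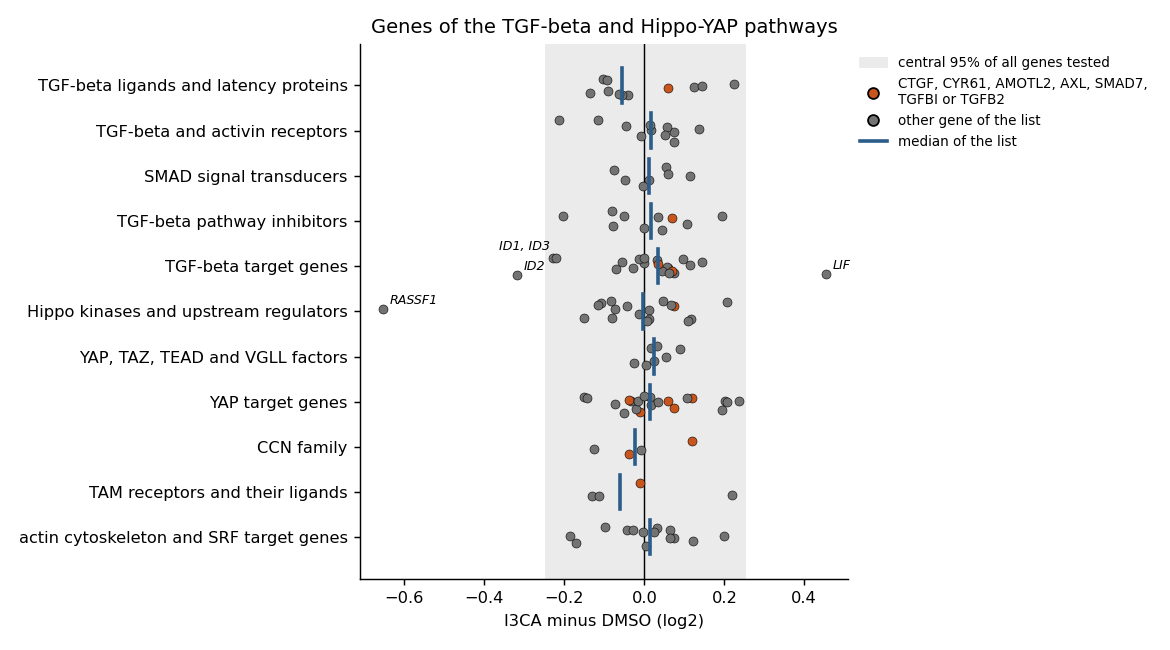
I3CA minus DMSO on the log2 scale for the measured genes of 11 pathway lists (rows, 1 point per gene; a gene may stand on several lists). Orange marks the 7 described genes, blue bars the list medians and grey the central 95% of all genes. The list medians lie between -0.06 and 0.03, and RASSF1, ID2 and LIF lie outside the grey band.

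Markers of the labelled cell line and of other cell types were compared between the groups, which does not test what the cells are. Of 11 glial and mesenchymal markers 8 were measured, and 0 passed in limma, adjusted or not. VIM, the mesenchymal filament vimentin, averaged 13.10 with I3CA and 13.08 with DMSO. GFAP, the astrocyte filament, averaged 8.34 with I3CA and 8.28 with DMSO. The leading members by p were NES (0.11 ± 0.09), SOX9 (-0.11 ± 0.10) and SPARC (0.08 ± 0.10). Markers of other cell types had 0 of 4 (macrophage), 0 of 2 (endothelial) and 0 of 3 (epithelial) past the threshold, and 0 at an unadjusted p under 0.05. CSF1R was at 0.09 ± 0.13, AIF1 at 0.08 ± 0.19 and ITGAM at -0.08 ± 0.21 among the first, VWF at 0.21 ± 0.11 and KDR at 0.09 ± 0.11 among the second, and CDH1 at -0.03 ± 0.09, KRT18 at 0.03 ± 0.12 and EPCAM at 0.01 ± 0.12 among the third. On the same arrays the AHR-responsive genes TIPARP, CYP1B1 and AHRR differed by 0.60 ± 0.13, 0.57 ± 0.15 and 0.33 ± 0.11. They were 3 of 4 genes listed, and CYP1A1 had no row of its own. In limma 0 of the 3 passed the adjusted threshold. All 3 had an unadjusted p under 0.05, against 3.16% of all genes. Without both arrays numbered 4 it was 2 of the 3, against 3.17% of all genes, and AHRR was at 0.23 ± 0.12 (limma unadjusted p = 0.0987). The difference between these genes and the TGF-beta and YAP targets was not tested.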

How the data were processed

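Whole-transcript arrays measured total RNA of U-87MG cells, 4 with I3CA and 4 with DMSO. The authors deposited log2 values per probe set; oligo and RMA were used, per the submitters' processing notes, and RMA corrects background, quantile-normalizes and summarises on the log2 scale. Versions, genome build, row filters and which arrays were normalized together are not given in the sources used here. Scanner files and scan dates were not used here, so no date was tested as a batch.

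Of 13486 rows, 11850 had 1 gene symbol in the platform annotation (from an older release), 657 several and 979 none. Symbols were kept as annotated, and the brightest row stood for a gene, which left 11822 genes. Each of the 7 measured members had 1 row. Groups were compared by a two-sided limma fit (version 3.58.1, R 4.3.3) of all 8 arrays without covariates, using lmFit and eBayes, with Benjamini-Hochberg adjustment over all genes and a threshold of 0.05. Standard errors (SE) and 95% intervals come from that fit. Its calls were tried on simulated data with changes larger than those of the 7 genes, which did not test the intervals. The number of arrays limits the precision.

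The members and lists were chosen with earlier results of these data known. The text names all members, the 3 genes of each list with the smallest unadjusted p, and the 3 profiles nearest to CTGF, TGFBI and TGFB2. ID1, ID3, TGFB1, TGFBR1, TGFBR2, VIM and GFAP were named after their values were seen. Lists are described by counts and medians, with no set test. Between arrays of equal replicate number, deviations from group means correlated at 0.04, 0.07 and 0.05 for numbers 1 to 3. For number 4 the correlation was higher, at 0.32. The fit described above has no term for replicate number. In 17 alternatives the block, the arrays, the normalization, the rows and the prior were varied.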

Additional observations from a re-analysis of the deposited data

Results flagged for a closer look

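Groups of 4 arrays were searched for 1 array well outside the other 3 (Dixon's criterion at the 95% level). Over the 7 targets and the other named genes, 8 of 116 groups were flagged, where the nominal rate of the criterion gives about 5.8. Among the 14 groups of the 7 targets there were 3, where the nominal rate gives 0.7. That rate assumes normal values, and the groups are not independent, since CTGF and SMAD7 were flagged in the same array. The share of all genes flagged was not counted, so an excess among the targets is not shown. CTGF stood at 8.72 in DMSO replicate 4, with the other DMSO arrays at 8.35 to 8.39. SMAD7 stood at 8.51 in the same array, with the others at 8.03 to 8.09. CYR61 stood at 8.97 in I3CA replicate 3, with the other I3CA arrays at 8.32 to 8.39. Outside the 7, DMSO replicate 4 was also apart for SMURF1 at 8.73, below the others, and for KDR at 8.48. SMAD5 was apart at 9.23 in I3CA replicate 2, TYRO3 at 9.15 in I3CA replicate 1 and CNN1 at 7.88 in I3CA replicate 3.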

How the results depend on the processing

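In all 17 alternatives 0 of the 7 targets passed the adjusted threshold or an unadjusted p under 0.05, and the count of all genes called was 1; leaving out genes under the median brightness removed 4 of the 7 (CTGF, CYR61, SMAD7 and TGFB2), which have no value there. The smallest adjusted p of a target was 0.986. The replicate block left the differences as they were, at -0.04 for CTGF and 0.06 for TGFB2, and changed no call. With the block, 557 of all genes had an unadjusted p under 0.05 in limma, against 374 without it. The signs of these small differences were not stable, and the cause was not tested. With 1 array left out, differences ran from -0.10 to 0.048 for CTGF, from -0.034 to 0.185 for CYR61 and from -0.0143 to 0.091 for TGFBI. They ran from -0.0006 to 0.162 for AMOTL2 and from -0.034 to 0.02 for AXL. Those of SMAD7 and TGFB2 kept their sign but came close to 0, at 0.0009 to 0.18 and 0.0013 to 0.161. The median of the 7 ran from -0.0006 without I3CA replicate 3 to 0.091 without I3CA replicate 2. The number of targets whose groups did not overlap ran from 0 to 1, being 1 (TGFB2) without DMSO replicate 4 and also 1 without both arrays numbered 4. In that last setting the sign turned for TGFBI (-0.0031), SMAD4 (-0.0114), YAP1 (-0.0155), AIF1 (-0.157), ITGAM (0.202), KRT18 (-0.069) and EPCAM (-0.0905). Quantile normalization turned AXL (0.0025) and VIM (-0.0054), and array weights turned ITGAM (0.0033), KRT18 (-0.01) and EPCAM (-0.0248). With 1 array left out, the sign also turned within these ranges: SMAD4 -0.0082 to 0.12, SMAD3 -0.034 to 0.167, VGLL4 -0.0174 to 0.123, YAP1 -0.0081 to 0.0563, WISP2 -0.112 to 0.0989, AIF1 -0.0465 to 0.253, ITGAM -0.228 to 0.121, CDH1 -0.0886 to 0.0097, KRT18 -0.0529 to 0.114, EPCAM -0.0759 to 0.0833, VIM -0.0024 to 0.0454 and GFAP -0.132 to 0.152. The RASSF1 difference was -0.22 without both arrays numbered 4, against -0.65 with them. Leaving out some 1 array moved the difference by more than 1.5 times for all 7 targets and for 38 of the 51 other named genes, and leaving out both arrays numbered 4 did so for 6 of the 7 and 26 of the 51. With 4 arrays a group and no measure of signal over background, small changes of dim probe sets cannot be resolved.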

Other observations

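ID1, ID2 and ID3 encode inhibitors of bHLH transcription factors and answer to SMAD signals, above all those of BMP receptors. All 3 had lower means with I3CA, and in limma 0 of the 3 passed the adjusted threshold, with 1 (ID2) at an unadjusted p under 0.05; ID1 and ID3 were picked after their values were seen. ID1 measured 10.40, 9.99, 10.45 and 10.78 with I3CA, against 10.69, 10.46, 10.44 and 10.94 with DMSO, a difference of -0.23 ± 0.17 (SE). ID3 measured 9.57, 9.21, 9.67 and 10.12 with I3CA, against 9.90, 9.47, 9.72 and 10.37 with DMSO, a difference of -0.22 ± 0.21. The ID1 difference shrank to -0.09 without I3CA replicate 2 and the ID3 difference to -0.05 without DMSO replicate 4. ID2 was at an unadjusted p of 0.0561 in limma without both arrays numbered 4. Number 4 was the highest array of each group for all 3 genes. The I3CA array was below its numbered DMSO array in 4 of 4 numbers for ID3 and ID2 and in 3 of 4 for ID1. The same held in 4 of 4 for ACVRL1, SMURF1 and AJUBA, and the share of all genes was not counted.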
